A study of Mus musculus with 2 samples.

Results

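Many genes carry more than 1 promoter, and the starts that lie inside a gene were measured here against the start at its upstream end. An internal start was taken to be an annotated transcription start of an autosomal protein-coding gene that lay at least 5 kb downstream of the gene's most upstream start, with starts within 1 kb of each other merged. It entered when the methylation table listed at least 10 CpG cytosines (rows) within 500 bp of any of its merged starts. This left 1930 internal starts in 1619 genes, out of 21067 such starts in 9219 genes, of which 5459 had at least 1 row. Of the 1930, 1015 joined several merged starts. Their windows were longer than those of most upstream starts, read 500 bp either side of 1 position, and so could reach 10 rows more easily. For 1163 of the 1930, in 962 genes, the most upstream start of the gene had 10 rows as well, so that the pair could be compared. For the other 767 it did not. The label of alternative promoter held for only some of them. A start of a protein-coding transcript with a complete 5′ end was present at 1068 (55.3%), whereas the other 862 marked only transcripts that are not annotated as coding or whose 5′ end is incomplete, and such an end need not be a promoter.

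An alternative promoter gives a gene a different first exon, and thereby a different untranslated leader or protein N-terminus, and allows the gene to be switched on separately in different tissues. Methylation of promoter CpGs is commonly found with silent promoters. Most promoters at the upstream end of genes are rich in CpGs and stay unmethylated, whereas the transcribed body of a gene is usually methylated, so an internal promoter sits in DNA that would otherwise carry methylation.

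The cells were Xmas mESCs, embryonic stem cells of female mice, labelled as strain C57/Bl6, in which GFP and mCherry are driven from the Hprt promoter on different X chromosomes. Both groups were grown in 2i/LIF by the modified culture method for the 7 passages that the labels give, and FACS then separated XX cells, which kept both reporters, from XO cells, which had lost an X chromosome. Methylation was read by reduced representation bisulfite sequencing (RRBS), which samples CpG-rich fragments, and the value of a cytosine (%mCpG) is the percent of its reads that stayed unconverted. The paper states a higher passage number than the labels. There was 1 XX library and 1 XO library, so the error of a difference over cultures is unknown and no test was made. In what follows, an SD is the spread over the listed CpG rows of a window, a difference is XX minus XO in percentage points, and the read depth behind each percent is unknown. Methylation values alone could not check that the cells are stem cells, and the karyotypes were taken from the labels.

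The sequences of 7 windows are examples taken mainly from the extremes of the measured values, and they do not stand for all internal starts. Each is 220 bases of GRCm38 (RefSeq), printed 5′ to 3′ on the strand of the gene, and CpGs with a listed value are in capitals. In Rusc2, the printed stretch just before the internal start (chr4:43416185-43416404, + strand) held 15 CpGs, of which 11 had a value, with a mean of 11.9% in XX and 58.1% in XO. The same length at the most upstream start of the gene (chr4:43381878-43382097, + strand) held 37 CpGs, with a mean of 5.40% in XX and 2.62% in XO. The internal start of Nubpl (chr12:52176076-52176295, + strand), a start in DNA that the reference marks as repeat, was the second most methylated above its first start in XO. Arhgef10l is shown for a pair with the reverse order. Its most upstream start (chr4:140665803-140666022, - strand), with 9 CpGs, was methylated. The internal start shown (chr4:140648597-140648816, - strand), among 4 measured in the gene, was low at the 15 of its 34 CpGs that had a value. Rangap1 (chr15:81729458-81729677, - strand) is shown since its internal start was higher in XX than in XO. Runx3 (chr4:135152434-135152653, + strand), with 42 CpGs in the stretch, is an example of a CpG-dense internal promoter that was low in both libraries.
Rusc2 internal: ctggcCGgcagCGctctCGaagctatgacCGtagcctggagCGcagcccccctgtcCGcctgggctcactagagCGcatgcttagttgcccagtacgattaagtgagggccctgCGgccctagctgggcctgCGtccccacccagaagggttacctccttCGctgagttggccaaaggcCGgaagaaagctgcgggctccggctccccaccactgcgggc
Rusc2 most upstream: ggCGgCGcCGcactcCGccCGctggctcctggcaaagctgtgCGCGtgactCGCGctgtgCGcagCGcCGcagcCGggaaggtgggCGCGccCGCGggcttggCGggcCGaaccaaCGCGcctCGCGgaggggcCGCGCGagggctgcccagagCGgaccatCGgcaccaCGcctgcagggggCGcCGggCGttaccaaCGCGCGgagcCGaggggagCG
Nubpl internal: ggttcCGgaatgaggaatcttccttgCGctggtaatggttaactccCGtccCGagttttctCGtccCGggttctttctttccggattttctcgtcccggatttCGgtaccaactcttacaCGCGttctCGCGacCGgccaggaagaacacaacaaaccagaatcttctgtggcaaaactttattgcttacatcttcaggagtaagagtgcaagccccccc
Arhgef10l internal: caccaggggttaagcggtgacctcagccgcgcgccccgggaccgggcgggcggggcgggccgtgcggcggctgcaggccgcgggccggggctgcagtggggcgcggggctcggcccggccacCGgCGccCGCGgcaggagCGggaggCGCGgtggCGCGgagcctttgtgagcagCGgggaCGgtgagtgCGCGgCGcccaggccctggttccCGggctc
Arhgef10l most upstream: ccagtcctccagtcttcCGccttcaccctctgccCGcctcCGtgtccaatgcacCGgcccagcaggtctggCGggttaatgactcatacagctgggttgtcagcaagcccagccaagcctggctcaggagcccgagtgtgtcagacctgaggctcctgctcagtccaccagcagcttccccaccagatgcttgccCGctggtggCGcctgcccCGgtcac
Rangap1 internal: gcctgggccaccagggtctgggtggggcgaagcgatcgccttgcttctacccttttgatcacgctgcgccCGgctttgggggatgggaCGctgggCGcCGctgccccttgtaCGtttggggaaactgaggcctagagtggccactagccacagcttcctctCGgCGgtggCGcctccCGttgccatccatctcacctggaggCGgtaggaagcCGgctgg
Runx3 internal: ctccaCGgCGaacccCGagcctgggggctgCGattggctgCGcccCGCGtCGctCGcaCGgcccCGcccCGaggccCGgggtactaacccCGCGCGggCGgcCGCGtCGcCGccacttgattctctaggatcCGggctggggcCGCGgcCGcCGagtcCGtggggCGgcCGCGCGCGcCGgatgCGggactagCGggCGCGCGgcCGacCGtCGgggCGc

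Internal starts were more methylated than most upstream starts in both libraries, and less so than the gene bodies around them. The median internal start had 11.6% in XX and 15.0% in XO, with the middle 50% of starts between 5.30% and 22.8% in XX and between 6.53% and 35.9% in XO. The 11175 most upstream starts with 10 rows had medians of 6.11% and 7.30%. The 1710 stretches of 1001 bp inside the same genes, over 1.5 kb from any start, had medians of 21.8% and 37.7%. Taking 20% as the line between low and methylated, 819 internal starts were methylated in XO (42.4%), set against 16.2% of all measured starts, 11.7% of most upstream starts and 75.6% of the stretches. The share was 17.2% when 20 rows were required and 19.2% when only complete coding transcripts were used. In XX, 587 (30.4%) were methylated, set against 11.4%, 8.11% and 55.7%. A level of 50% or more in XO was reached by 232 internal starts (12.0%), 2.52% of all measured starts, 0.877% of most upstream starts and 30.4% of the stretches.

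Most internal starts were lower in XX than in XO, by a median of -3.82 points, and 76.4% were lower. A fall of at least 20 points was found at 258 internal starts (13.4%), beside 3.0% of all measured starts, 1.21% of most upstream starts and 30.9% of the stretches. A rise of that size was found at 4 (0.207%), beside 0.198% of all measured starts, 0.197% of most upstream starts and 0.234% of the stretches. The strands of a window gave a rough measure of spread within a library. Each strand holds only part of the rows, often at other positions, so the gap between strands also holds differences between positions. Over the 1898 internal starts with at least 3 rows on each strand, the XX minus XO difference on the forward strand differed from that on the reverse by a median of 5.95 points, more than the median difference itself, and the sign was the same on both strands at 1205. At 147 starts the fall was 20 points or more on each strand, out of 255 with such a fall over both strands together, and no start rose by 20 points on each. Falls of over 20 points thus exceeded the median gap between strands over all these starts. Differences of a few points at a single start did not. The SD of that gap was 12.2 points. Falls of at least 20 points lay mostly, in 201 of 258 cases, at starts with 10 to 19 rows and no coding transcript. The gap was not taken at such starts alone, so it cannot show how far these falls exceed the spread there.

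With the line at 20%, 1077 internal starts (55.8%) were low in both libraries and 553 (28.7%) were methylated in both. Of the others, 266 (13.8%) were methylated in XO and low in XX, and 34 (1.76%) were methylated in XX only. These classes are given for internal starts alone, so they do not tell internal starts from other regions. All 19 autosomes had a negative median, from -2.12 points on chromosome 12 to -6.30 on chromosome 17.

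Whether an internal start carried a coding transcript went with its methylation more than how far into the gene it lay. The 1068 starts with a coding transcript had medians of 6.95% in XX and 8.18% in XO, near those of most upstream starts, and 18.4% were methylated in XO. The 862 without had medians of 21.1% and 34.1%, near those of the stretches, and 72.2% were methylated in XO. The median difference was -1.40 points in the former and -11.9 in the latter, and 220 of the 258 falls of 20 points were at starts without a coding transcript. Distance from the first start made little difference. In XO the median was 14.7% at 5 to 10 kb, 16.4% at 10 to 20 kb, 16.0% at 20 to 50 kb, 15.1% at 50 to 100 kb and 13.3% beyond 100 kb, and over the 1930 starts the Spearman correlation between XO methylation and distance was -0.037. Just inside the 5 kb limit, the 77 starts at 5.0 to 5.5 kb had a median of 15.6% in XO, and the 103 starts at 4.5 to 5.0 kb, which were not counted as internal, had 16.9%.

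Coding and non-coding internal starts also differed in CpG density. A window was called CpG-dense when its GC content was at least 50% and its ratio of observed to expected CpGs at least 0.6. Of starts with a coding transcript, 603 (56.5%) were CpG-dense, and of those without, 74 (8.58%). Dense internal starts had low medians whatever they carried. These were 5.47% in XX and 6.51% in XO for the 603, and 6.03% and 9.02% for the 74. Yet 14 of the 74 (18.9%) were methylated in XO, beside 32 of the 603 (5.31%). Among CpG-poor starts the 2 kinds parted, with 10.7% in XX and 13.5% in XO at the 465 with a coding transcript and 22.3% and 37.0% at the 788 without. The 603 dense coding starts held no fall of 20 points, the 465 CpG-poor coding starts held 38, and the 788 held 218.

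**Figure D1:**
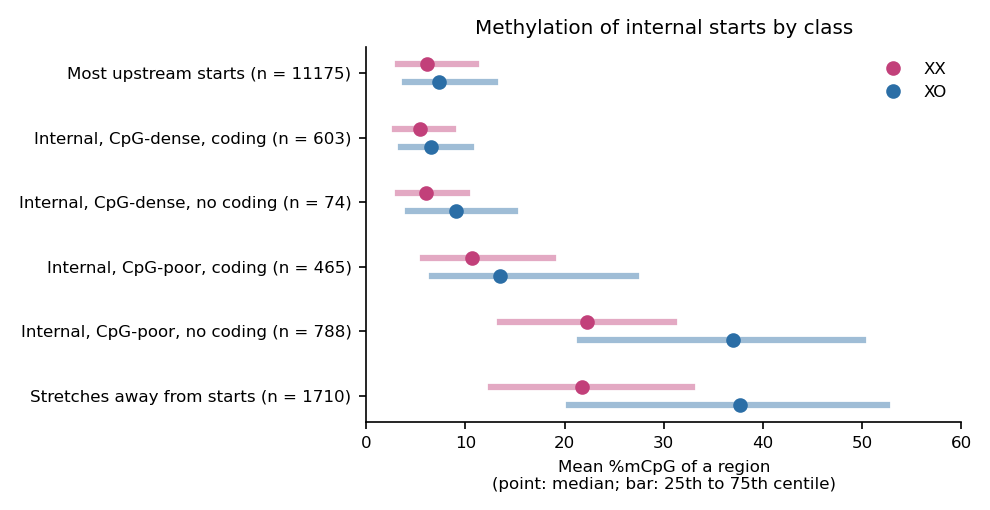
Points give the median over regions of mean %mCpG in the XX and XO libraries and bars the 25th to 75th centiles, for most upstream starts, for internal starts by CpG density and by whether they carry a coding transcript, and for stretches of the same genes away from starts. The CpG-dense internal starts sit at the level of most upstream starts (7.30% in XO), and CpG-poor starts without a coding transcript (37.0%) at that of the stretches (37.7%).

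The contrast remained when windows of like density were set side by side. At an observed to expected ratio of 0.4 to 0.5, the 125 internal starts with a coding transcript had a median of 11.9% in XO and the 577 most upstream starts 10.8%, whereas the 169 internal starts without had 29.8% and the 350 stretches 32.7%. In XX the medians were 10.2%, 8.96%, 20.2% and 19.7% in the same order. At 0.3 to 0.4 they had 22.9%, 14.8%, 38.4% and 40.5% in XO, so that coding internal starts lay above the most upstream ones there. At 0.5 to 0.6 they had 9.16%, 8.61%, 18.0% and 29.7%, so that there internal starts without a coding transcript were the ones in between. At 0.6 to 0.8 the medians of internal starts were low with or without a coding transcript, at 6.92% and 8.17% in XO. The shares methylated in XO were 7.64% and 21.8% in the same order. Density went with methylation within the internal starts as a whole (a Spearman correlation of -0.655 in XO over 1930 starts of the same libraries, given as a description).

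**Figure D2:**
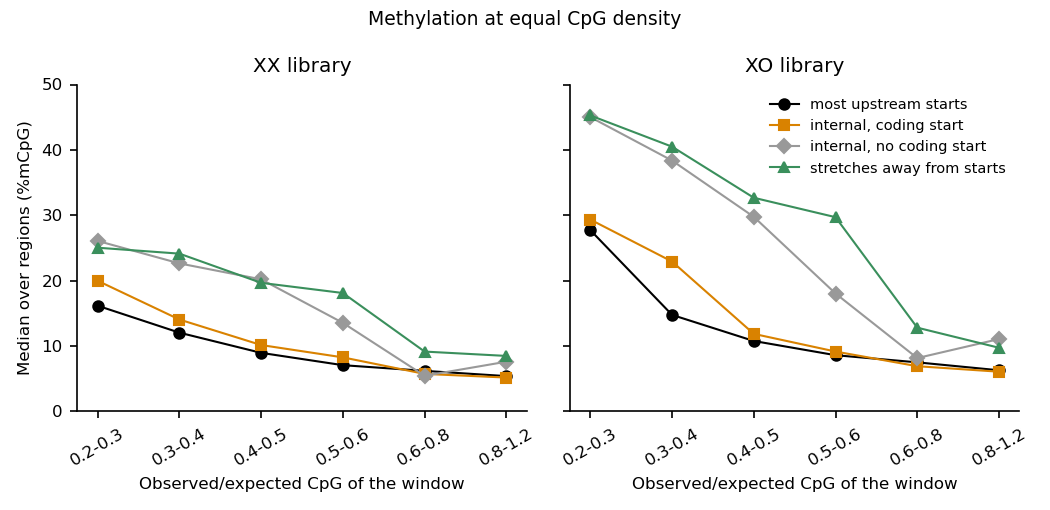
Median %mCpG over regions is plotted against the ratio of observed to expected CpGs in the window, in bins, for the XX library and the XO library. In both, below a ratio of 0.5, internal starts with a coding transcript lie nearer to the most upstream starts and those without nearer to the stretches away from starts.

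The 2 kinds of internal start differed in place and in coverage too. Starts without a coding transcript lay in an exon of another transcript of the gene in 455 cases (52.8%), those with one in 99 (9.27%), and the median number of rows was 14 against 44. Within introns the medians in XO were 30.1% without and 7.82% with a coding transcript, and within exons they were 38.4% and 13.4%. Among starts with 10 to 19 rows they were 39.7% and 19.03%, and with 20 rows or more 18.8% and 6.95%. Each split thus kept the order, with both kinds lower where more rows were listed. The 305 starts with 10 or 11 rows, just inside the limit, had a median of 37.2% in XO, and the 414 starts with 8 or 9 rows, just outside, had 42.7%. Another gene's first start fell in few windows, that of a coding gene in 64 and that of a non-coding gene only in 111, and the 1755 windows with neither had a median of 17.1% in XO.

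Start positions in DNA that the reference soft-masks as repeat numbered 176. Their medians were 15.7% in XX and 21.4% in XO, against 11.1% and 14.6% at the other 1754. In these, too, the 94 with a coding transcript (11.1% in XO) were lower than the 82 without (35.2%).

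The methylation around internal starts took the form of a trough where a coding transcript began and was nearly flat at CpG-poor starts without one. The 74 dense starts without a coding transcript were not profiled. At CpG-dense coding starts the mean over 100 bp bins was 8.46% in XX and 10.2% in XO within 200 bp of the start, and 23.3% and 31.3% from 2 to 1 kb upstream. The most upstream starts of the pairs had 9.43% and 11.1% at the start and 22.2% and 31.1% upstream. At CpG-poor coding starts the trough was shallower, with 14.8% and 18.7% at the start and 22.1% and 30.5% upstream. CpG-poor starts without a coding transcript had 25.2% and 37.6% at the start, little below the 29.9% and 43.1% upstream. The gap between XO and XX was therefore narrow in the troughs, at -1.72 points for dense coding starts, and wide outside them, at -7.94 points upstream of the same starts. The bins far from a start rest on few windows, 25 to 50 for the dense coding class, since RRBS reads little DNA that is poor in CpGs.

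**Figure D3:**
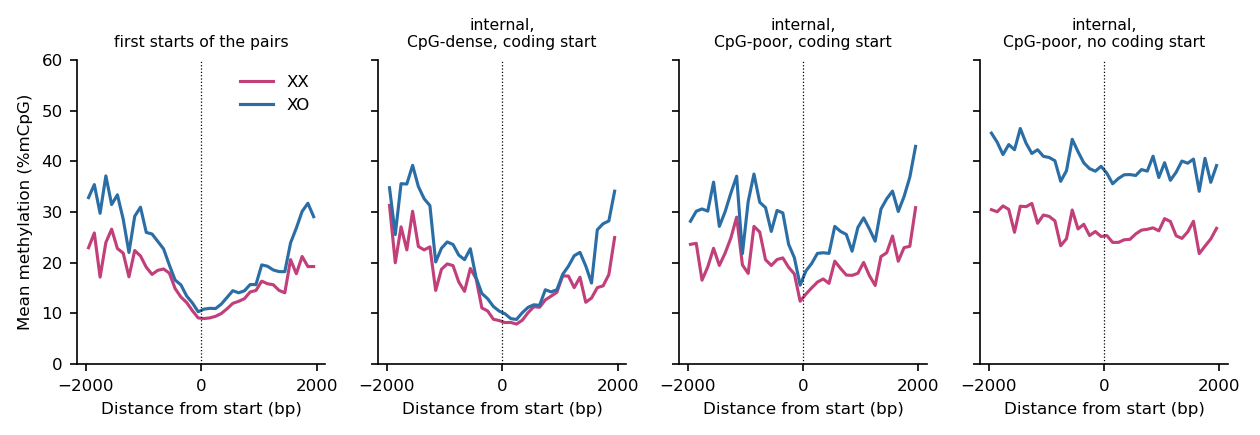
Mean %mCpG in 100 bp bins is plotted against distance from the start for XX and XO, for the most upstream starts of the pairs and 3 classes of internal start. Dense coding internal starts show the same trough as most upstream starts, and CpG-poor starts without a coding transcript (37.6% in XO within 200 bp) show almost none.

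Within a gene, the methylation of the internal start could not be read from that of the most upstream one. Over the 1163 pairs the medians were 14.1% at the internal and 5.86% at the first start in XX, and 20.95% and 6.83% in XO. The internal start was the higher in 849 pairs (73.0%) in XO and in 841 (72.3%) in XX, by a median over all pairs of 11.04 points in XO and 7.01 in XX. With at least 20 rows these were 2.03 and 1.45 points, with forward-strand rows 2.97 and 2.09, and with complete coding transcripts only 1.31 and 1.11. In XO it lay at least 20 points above the first start in 448 pairs (38.5%, with 62.3% for the stretches), and at least 20 points below in 25 (2.15%, with 1.30% for the stretches). In XX it lay that far above in 265 (22.8%). Pearson's r between the members of a pair was 0.0084 in XO and 0.021 in XX, over 1163 pairs from the same libraries. The fall from XO to XX was the larger at the internal start in 803 pairs (69.0%). This share was 81.6% in pairs without a coding transcript at the internal start and 53.6% in pairs with one. Where the coding internal start was CpG-dense it was 49.4%.

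By class, the gap of a pair was found mainly where the internal start had no coding transcript. Its median in XO was 27.7 points in the 642 pairs without one and 1.22 points in the 521 pairs with one. Of the former, 387 (60.3%) had an internal start at least 20 points above the first in XO, and of the latter 61 (11.7%). When each start was put on either side of 20% in XO, 531 pairs had a low first and a methylated internal start, 512 were low at both, 60 were methylated at both and 60 had a methylated first and a low internal start. In those last 60 pairs the internal start, at a median of 8.004% in XO, carried a coding transcript in 80% and was CpG-dense in 60%. In the 512 pairs low at both starts these shares were 71.7% and 50.8%, so they mostly went with a low internal start. In the 531 pairs with a low first and a methylated internal start, whose median was 25.3% in XX and 42.2% in XO, 4.14% were dense.

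**Figure D4:**
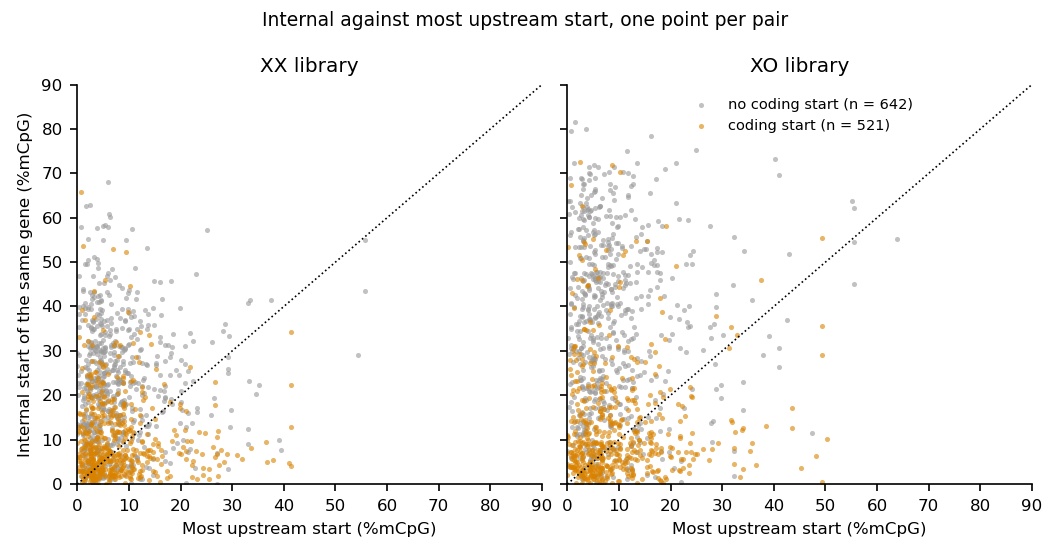
Each point is an internal start, with its %mCpG on the vertical axis and that of the most upstream start of the same gene on the horizontal axis, in XX and in XO, and the dotted line marks equal values. Points fill the left edge up to about 80% in XO, mostly from the 642 pairs without a coding transcript at the internal start, and few lie at the lower right.

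The 5 internal starts furthest above their first start in XO, chosen by that value, were those of Flvcr1, a haem exporter, Nubpl, an assembly factor of mitochondrial complex I, Mast2, a microtubule-associated kinase, Crim1, a transmembrane protein that binds growth factors, and Ergic1, a protein of the early secretory pathway. At Nubpl the internal start had 46.8% ± 10.8 in XX and 79.5% ± 9.72 in XO (SD over 16 CpG rows), and the first start 3.02% ± 3.704 and 0.658% ± 3.22 (SD over 24 rows). Its window was soft-masked over 96.4% of its length, and the fall was the same on both strands, at -32.5 and -32.8 points. Flvcr1 had 62.6% in XX and 81.6% in XO against 1.66% and 1.504% at its first start, and Mast2 had 60.8% and 80.01% against 6.14% and 3.60%. For Crim1 the values were 34.5% and 72.2% against 2.78% and 1.39%. Ergic1, with 53.7% and 72.5% against 1.13% and 2.44%, was the only one of the 5 with a coding transcript at the internal start.

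The 5 furthest below were those of Arhgef10l, Cbfa2t3, a transcriptional co-repressor of blood cells, Tbc1d1, a Rab GTPase-activating protein of glucose uptake, Zic4, a zinc finger factor of the developing brain, and Map4k1, a kinase of blood cells. The Arhgef10l internal start had 4.17% ± 1.80 in XX and 0.431% ± 1.16 in XO (SD over 24 rows) and its first start 41.3% ± 23.3 and 49.3% ± 25.8 (SD over 17 rows). All listed CpGs of this internal start lay 666 to 758 bp into the gene from the first of its merged starts. The gene's other measured internal starts, all with a coding transcript, were methylated, at 29.1%, 55.5% and 35.7% in XO. Cbfa2t3 had 11.6% and 6.26% at the internal start against 24.7% and 48.2% at the first, and Tbc1d1 4.94% and 3.69% against 36.7% and 45.3%. Zic4 had 5.37% and 10.3% against 37.8% and 50.2%, and Map4k1 7.61% and 11.5% against 39.5% and 47.4%. In 4 of these genes, all but Map4k1, the internal start carried a coding transcript.

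The largest falls, taken among pairs with the same sign on both strands, were in Rusc2, Vps52, Aacs, Ulk4 and Nup210, and none of these internal starts had a coding transcript. Rusc2, an adaptor protein of vesicle traffic, had 17.2% ± 15.6 in XX and 59.9% ± 20.4 in XO (SD over 19 rows) at an internal start in an exon. The fall was -43.9 points on the forward and -41.7 on the reverse strand, and the most upstream start was at 4.92% and 2.21%. Vps52, a subunit of the complex that tethers vesicles to the Golgi, had 69.5% in XO and 27.2% in XX. Aacs, an enzyme that activates acetoacetate, had 64.7% and 22.8%, the kinase-like gene Ulk4 had 61.9% and 20.3%, and Nup210, a membrane protein of the nuclear pore, had 70.3% and 29.6%. Their first starts lay between 4.05% and 12.7% in XO.

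Rises were fewer and smaller. Rangap1, the activator of the Ran GTPase in nuclear transport, had 27.6% ± 9.29 in XX and 1.58% ± 2.19 in XO (SD over 11 rows). This was at a CpG-dense internal start, with rises of 31.5 and 19.4 points on the strands. Its first start had 4.23% and 2.09%. Within that first window, forward-strand cytosines 259 to 311 bp into the gene had 31.6% to 34.2% in XX and 0% in XO. Some others there were higher in XO, such as 13.04% against 0% at 169 bp. Adar, an RNA-editing enzyme, had 26.3% and 7.28%, and Lrp8, a receptor for reelin, had 28.0% and 10.8%. Ank2, an ankyrin that anchors membrane proteins, had 15.9% and 0.774%, but its rise was 22.7 points on the forward and 0.616 on the reverse strand. Shank3, a scaffold of the synapse, had 31.4% and 18.9%. The 4 rises of at least 20 points were in Rangap1, Grm4, Myh7b and Tinagl1, of which the last 3, named after their values were seen, did not meet the rule on strands or on pairs.

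**Figure D5:**
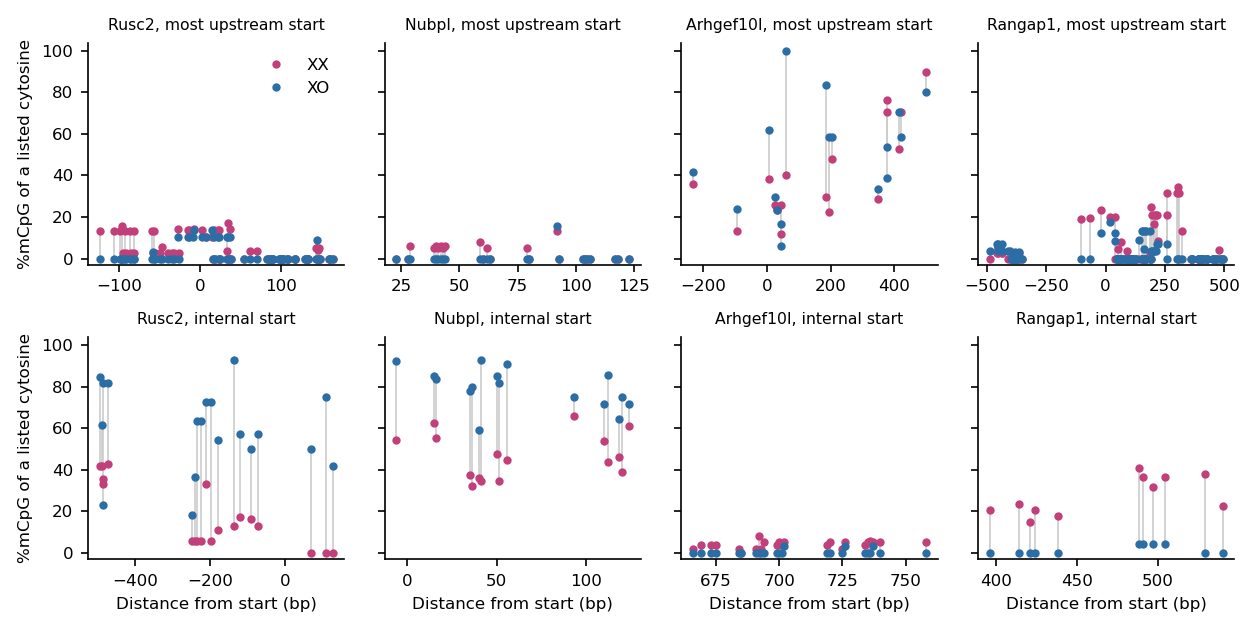
The %mCpG of each listed cytosine in XX and XO, joined by a line, is plotted against distance from the start in Rusc2, Nubpl, Arhgef10l and Rangap1, with the most upstream start above and the internal start below. Nearly all cytosines of the Rusc2 and Nubpl internal starts are higher in XO, those of the Arhgef10l internal start are near 0 in both libraries, and those of the Rangap1 internal start are all higher in XX.

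Different starts of the same gene could be far apart. In the 250 genes with at least 2 measured internal starts, the median range between the lowest and the highest was 18.5 points in XO and 11.4 in XX, and it was over 20 points in XO in 116 genes. Srrm2, a splicing co-activator, had the widest range, with starts at 9.36%, 78.4% and 23.5% in XO and 5.19%, 57.4% and 17.2% in XX. Speg, a kinase of striated muscle, had starts at 1.75%, 70.0% and 14.8% in XO. Csnk1e, a casein kinase of the circadian clock, had a start with a coding transcript at 4.33% in XX and 2.70% in XO and a start without at 43.3% and 68.7%. Mical3 and Cit, which act on the cytoskeleton, had ranges of 66.4 and 60.01 points in XO.

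Of the 677 dense internal starts, 46 were methylated in XO (6.79%, beside 8.78% of CpG-dense most upstream starts), and 23 of the 46 were at 20% or more in XX as well. Of the 46, 32 carried a coding transcript (5.31% of dense coding starts) and 14 did not (18.9% of dense starts without one). Of the 9 at 40% or more in XO, all 9 were at 20% or more in XX, with medians of 37.0% in XX and 44.5% in XO. Fbxo17, an F-box protein, had 65.7% ± 23.3 in XX and 67.4% ± 18.5 in XO (SD over 12 rows), where its first start had 0.73% and 0.74%. Inpp5f, an inositol phosphatase with an imprinted internal transcript, had 52.9% ± 36.1 and 54.5% ± 34.3 (SD over 18 rows), where its first start had 7.00% and 3.20%. Lrif1, a chromatin protein that binds HP1, had 39.3% and 50.4%, and Camta1, a calmodulin-binding transcription factor, had 37.0% and 44.5% at 1 internal start and 1.49% and 3.03% at another. At Fbxo17 and Inpp5f the libraries differed by less than the spread over CpGs.

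The letters of the DNA near the start were compared over 250 bases before to 50 after it, on both strands. The GC box GGGCGG, the binding motif of Sp1-family factors, was present at 59.1% of internal starts low in XO and 15.8% of those methylated in XO, with 68.1% at measured most upstream starts and 43.7% at all first starts. Among CpG-dense internal starts it was present at 71.2% of the 631 low and 30.4% of the 46 methylated ones. The motif itself holds a CpG, so its share moves with density. CCAAT was present at 32.1% of low and 26.5% of methylated internal starts, and TATAAA at 4.14% and 5.13%. CCGG, at which the DNA is cut in RRBS and which may overlap the GC box, was present at 77.3% of internal and 88.1% of measured most upstream starts. A match is only a match of letters.

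Internal starts without a coding transcript that were methylated in XO had a like share of that methylation in XX as stretches of gene body did. To keep the choice of starts apart from the value read, starts were put in a class by their XO level on a strand and read on the opposite strand. Internal starts without a coding transcript at 40 to 60% on the forward strand had a mean of 27.8% in XX and 45.9% in XO on the reverse strand, a ratio of 0.606, and stretches so chosen had 29.2% and 48.3%, a ratio of 0.604. For internal starts with a coding transcript the ratio was 0.602 in the same class over 53 starts, and 0.755 over 136 starts in the class of 20 to 40%, where those without had 0.613. Most upstream starts had ratios of 0.694 and 0.808 in these classes. On the strand read, these had means of 31.1% and 16.8% in XO, beside 45.9% and 31.6% at internal starts without a coding transcript. Coding internal starts classed at 20 to 40% also had a lower XO mean than those without. These ratios were thus compared at unlike levels. With the strands exchanged, the ratio at 40 to 60% was 0.771 for most upstream starts and 0.646 for coding internal starts. For those without it was 0.596, and for stretches 0.582. The spread of these ratios over cultures is unknown, and their differences were not tested.

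Genes of the DNA methylation machinery had internal starts of both kinds. Of 28 listed genes, 7 were measured at 13 internal starts, with medians of 11.05% in XX and 16.5% in XO. Of these, 9 starts were lower in XX (69.2%, beside 76.4% of all internal starts) and 1 fell by at least 20 points (7.69%, beside 13.4%). With so few starts, these were not read as differences. Dnmt3a encodes a de novo methyltransferase whose internal promoter makes a shorter protein in embryonic cells, and its 2 measured starts differed. The start at chr12:3894824 had 33.9% ± 14.2 in XX and 65.4% ± 20.3 in XO (SD over 11 rows), and that at chr12:3891728 had 28.2% ± 35.9 and 24.98% ± 31.3 (SD over 20 rows). Dnmt1, the maintenance methyltransferase, had 1.22% and 3.59% at an internal start with a coding transcript and 25.1% and 42.5% at one without. Tet1, which oxidises methylated cytosines, had 9.15% and 7.32% at a CpG-dense start and 20.7% and 32.6% at a CpG-poor one, and its relative Tet3 had 4.08% and 2.46%.

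Imprinted genes often have an internal start that is methylated on the copy from a single parent. Among 58 listed genes, 10 were measured at 15 starts, with medians of 13.97% in XX and 19.7% in XO, and 13 were lower in XX (86.7%, beside 76.4% of all internal starts). With so few starts, the count of 0 falls of 20 points, beside 13.4% of all internal starts, was not read as a difference. Gnas, the gene of a G-protein subunit with several imprinted promoters, had 13.97% and 19.7%, 5.41% and 4.99%, and 1.56% and 1.05% at its 3 internal starts. Grb10, a growth inhibitor, had 12.1% ± 18.4 in XX and 24.4% ± 21.4 in XO (SD over 125 rows). Plagl1, a zinc finger factor, had 4.13% and 12.2% at a coding internal start. Igf2, a fetal growth factor, had 3.89% and 6.66% at a start and 16.4% and 32.2% at another. Of the 15 starts, that of Inpp5f, given above, was the highest in both libraries, and the next in XX was that of Snrpn, a gene of the Prader-Willi region, at 35.5% and 39.2%.

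Transcription regulators known for paired promoters were mostly low at the internal one. Of 90 listed genes, 38 were measured at 53 starts, with medians of 8.34% in XX and 10.3% in XO. In XO 15 starts were methylated, a share of 28.3% beside 42.4% of all internal starts. Of the 53, 38 had a coding transcript, with a median of 8.32% in XO, beside 8.18% for all coding internal starts. The 15 without had 20.7%, beside 34.1% for all internal starts without one. The proximal promoters of the Runx genes, which encode regulators of blood and bone, were CpG-dense and low. Runx3 had 6.87% ± 9.27 in XX and 8.29% ± 10.8 in XO (SD over 194 rows), Runx2 had 10.3% and 11.1%, and Runx1 had 16.8% and 13.96%. The neighbouring CpG-poor window of Runx1 had 12.6% in XX and 33.9% in XO. The histone deacetylase gene Hdac7 had 0.41% and 2.25% at a dense coding internal start and 30.6% and 42.3% at a start without a coding transcript. Lmo2, a regulator of blood formation, had 12.3% and 8.87%. The first starts of Hdac7 and Lmo2 had fewer than 10 rows. Pax5, the B-cell factor, had 6.22% and 8.26%.

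Pluripotency and Polycomb genes were low at nearly all of their few internal starts. Of 43 listed genes, 8 were measured at 10 starts, with medians of 8.39% in XX and 8.04% in XO. In XO 1 start was methylated (10%, beside 42.4% of all internal starts), and 5 were lower in XX (50%, beside 76.4%). The 8 with a coding transcript had a median of 8.04% in XO, beside 8.18% for all coding internal starts. The 2 without had 14.4%, beside 34.1% for all internal starts without one. With so few starts, these were not read as differences. Esrrb, a nuclear receptor of the naive state, had 13.1% and 10.4%. Cbx7, a Polycomb subunit of stem cells, had 8.68% and 3.77% at a dense coding start and 14.02% and 25.4% at a start without a coding transcript. The LIF receptor gene Lifr had 4.90% and 4.37%.

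Synaptic and neuronal genes had long distances between starts and low levels. The list of 73 genes gave 49 starts in 35 genes, at medians of 6.84% and 9.07%, of which 14 were methylated in XO (28.6%, beside 42.4% of all internal starts). The 37 with a coding transcript had a median of 8.53% in XO, beside 8.18% for all coding internal starts. Nrg1, a ligand of ErbB receptors, had 3.07% and 5.44% at a dense internal start and 27.0% and 54.7% at a CpG-poor one, both with a coding transcript. The neurexin gene Nrxn2 had 2.99% and 1.27% at a dense start and 30.1% and 38.9% at a start without a coding transcript. Ptprd, a receptor phosphatase, had 5.40% in XX and 21.4% in XO, and Ntrk3, the receptor of neurotrophin-3, had 8.67% and 22.01%. Bdnf, with its many first exons, had 12.6% and 14.8%.

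Signalling genes were alike in level, and genes of the cytoskeleton and of muscle were nearer to internal starts as a whole. The 77 starts of 54 signalling genes, of 103 listed, had medians of 7.05% and 9.07%, and 20 were methylated in XO (25.97%, beside 42.4% of all internal starts). Akap7, an anchor of protein kinase A, had 20.98% ± 10.2 in XX and 55.3% ± 8.97 in XO (SD over 17 rows) at a start, and 0.28% and 4.94% and 1.24% and 4.71% at its 2 others. Pde4d, a cAMP phosphodiesterase, had 3 starts, all at or below 11.02% in either library. The 61 starts of 37 cytoskeletal and muscle genes, of 82 listed, had medians of 12.4% and 18.5%, with 29 methylated in XO (47.5%, beside 42.4% of all internal starts) and 9 falls of 20 points (14.8%, beside 13.4%). Neb, a giant protein of the muscle thin filament, had 18.8% ± 12.2 in XX and 57.8% ± 14.5 in XO (SD over 17 rows). Kif21b, a kinesin, had 30.7% ± 13.6 and 67.7% ± 15.5 (SD over 22 rows). Tpm1, a tropomyosin, had 6.53% and 21.1%, and the 4 starts of the linker Plec had 5.05% to 24.0% in XX and 6.98% to 29.6% in XO.

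The lists differed as the classes did. In each of the 7 lists the median in XO was lower at starts with a coding transcript than at starts without, at 8.69% and 27.0% for the DNA methylation machinery, 7.54% and 22.9% for signalling, and 13.9% and 33.2% for the cytoskeleton and muscle. The lists overlap in function, hold 2 to 57 starts in such a class, and were not compared by a test.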

How the data were processed

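RRBS libraries were made by the authors from sorted XX and XO cells with the Ovation Methylseq kit, with 1 library per group. Per the labels, the deposited percent of methylated reads per cytosine was made with bcl2fastq and Bismark on mm10. Tool versions and a coverage minimum are not given in the sources used here. The table holds 1782730 rows with a value in both libraries and 0 further sample columns. Counts were not used, so depth and its precision are unknown.

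Starts came from GENCODE M21 and sequence from GRCm38.p6 (RefSeq), on which 51 rows lay on no CpG cytosine. The mean over rows within 500 bp was taken for starts with at least 10 rows, weighting strands as listed. For merged internal starts the window ran from 500 bp before the outermost start to 500 bp after the last. As there are no replicates, no test was made. The members and the gene lists were chosen with earlier results of these data known. The genes named are, among pairs with 3 rows and the same sign on each strand, the 5 with the highest and the 5 with the lowest internal minus first difference in XO, the 5 largest falls and the 5 largest rises, and examples from the 7 lists. Genes singled out in the paragraphs on ranges within a gene and on dense methylated starts were chosen after their values were seen. Starts in repeats, exons and row-number classes were also split after the data were seen.

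Alternatives changed the row minimum, window, distance, choice of first start, strand, summary and 20% line. Code was tested on simulated data. Python 3.11.15, numpy 2.4.6, pandas 2.3.3, scipy 1.17.1 and matplotlib 3.10.9 were used.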

Additional observations from a re-analysis of the deposited data

How the results depend on the processing

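With 1 library per karyotype, no library could be left out. No paired analysis was possible because no result comes from a test and each group has 1 sample. A value was said to move when it left the 95% binomial interval of the main value over starts, which does not cover differences between cultures. Of 82 values, 53 moved and 29 did not. None of the differences changed sign, and levels and shares, which cannot be negative, could not. The main values were 11.6% (XX), 15.0% (XO), -3.82 points (XX minus XO), 7.01 and 11.04 points (internal minus first start in XX and XO) and 42.4% (share at 20% or more in XO). In the same order, a minimum of 20 rows gave 6.92, 7.96, -1.41, 1.45, 2.03 and 17.2, starts with coding transcripts only 6.94, 8.25, -1.60, 1.11, 1.31 and 19.2, forward-strand rows 6.42, 7.67, -1.32, 2.09, 2.97 and 21.4, and reverse-strand rows 6.65, 8.10, -1.43, 1.53, 2.87 and 19.8. By construction these keep windows with more listed CpGs or with coding transcripts. A strand minimum of 5 rows, added after the data were seen, gave 17.1% in XO, a gap of 13.9 points in XO and a share of 45.5% on the forward strand, and a share of 45.1% on the reverse. Windows of 1000 bp gave 15.0, 21.7, -5.81, 9.39, 16.0 and 52.1, and of 250 bp 8.39, 11.2, -2.61, 5.02, 7.19 and 33.8. The median over rows gave 6.07, 9.56, -2.94, 5.92 in XX and a share of 37.4%. Leaving out rows at 0 or 100% in both libraries gave 14.3, 19.6, -5.37 and a share of 48.97%. Without windows that hold another gene's start, XO was 17.1% and the share 44.7%. Lines of 10% and 50% gave shares of 61.9% and 12.0%. For these changes the cause was not tested. A distance of 10 kb and the farthest start moved none of the 6 values, and the merged upstream start, which bears only on the gaps, moved neither of those 2. The unknown depth behind each percent limits every single-start value.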

Other observations

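On the X chromosome, 29 internal starts had at least 10 rows. Their medians were 5.07% in XX and 6.77% in XO, with a median difference of 0.0052 points. XX was the lower at 48.3% of them, beside 76.4% of autosomal internal starts. A fall of at least 20 points was found at 3 (10.3%, beside 13.4% of autosomal internal starts). The 2 sets differ in number and the difference was not tested.

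The autosomal gene with the greatest distance between starts was Fgfr2, a fibroblast growth factor receptor. Its internal starts had 15.9% in XX and 36.6% in XO at a start without a coding transcript and 2.62% and 5.08% at a CpG-dense coding start, with 1.56% and 4.78% at the annotated most upstream start. Fgfr1, a related receptor, had a dense coding internal start at 5.83% and 5.09%, and its first start had fewer than 10 rows. Fgfr3 had 38.4% and 53.4% at an internal start without a coding transcript and 1.54% and 2.73% at its first. The 3 genes, chosen after their values were seen, had internal starts of different kinds.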
